A study of Homo sapiens with 80 samples.

Results

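The human mitochondrial genome carries 37 genes, whose names begin with MT- in the deposited count tables: 13 for proteins, 2 for ribosomal RNAs and 22 for transfer RNAs. They were chosen by that name alone. All 37 were among the 58735 genes of the RNA-seq tables, 29 were among the 17463 genes of the DGE table (13 proteins, both rRNAs and 14 tRNAs), and 0 were among the 17792 genes of the PRO-seq table. DGE, digital gene expression, counts reads from transcript 3′ ends.

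The study examined resistance to lenalidomide, a drug that redirects the cereblon ubiquitin ligase, using KI-JK and SU-DHL-1 cells, which are long-established cultures from T cell lymphomas driven by the kinase ALK. Its count data for these genes came from 36 libraries, 3 in each group. In the first RNA-seq set every SU-DHL-1 culture carried Cas9 and an inducible guide against ZFP91, a zinc finger protein that lenalidomide targets for degradation. The groups were regrown ZFP91 KO and parental ZFP91 KO cells, given doxycycline at 1 ug/ml for 96 h to induce the guide, and regrown ZFP91 WT and parental ZFP91 WT cells, which carried the same constructs without doxycycline, so the knockout and doxycycline cannot be told apart. Regrown cells were 3 independent pools that had become resistant and had then been free of drug for at least 2 months, each giving 1 library per group. The DGE groups were regrown and parental SU-DHL-1 cells, without those constructs in their labels, each given 2.5 uM lenalidomide or its solvent DMSO for 18 h. In the last RNA-seq sets, KI-JK and SU-DHL-1 cells carried either a vector for CSNK2B, the regulatory subunit of casein kinase 2, or an empty vector. KI-JK was grown in 20% serum and the other cells in 10%. Nothing in the labels says that the 3 parental, KI-JK or empty-vector libraries of a group came from separate cultures, so p-values measure the spread between these libraries, which may be technical.

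The mitochondrial genome is a small circle that is transcribed on both strands into long precursor RNAs. In most places a tRNA sits between larger genes, and cutting the tRNAs out of the precursor releases the messenger and ribosomal RNAs. The rRNAs form the core of the mitochondrial ribosome, the tRNAs decode on it, and all the proteins are membrane subunits of oxidative phosphorylation, which are joined there by many more subunits made from nuclear genes. Most genes lie on the heavy-strand transcript, while MT-ND6 and 8 of the tRNAs lie on the light-strand transcript. Mature mitochondrial tRNAs are short and carry no poly(A) tail, so a library made for longer RNA holds few of them. Whether poly(A) RNA was selected, and whether counting used strand, was not given in the sources used here, so reads from a light-strand gene and from the heavy-strand precursor across it cannot be told apart.

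RNA-seq libraries held 14444523 to 28927808 counts and DGE libraries 41571 to 395827 counts. Of 8 markers of the lymphoma, 7 or all 8 exceeded 1 CPM (CPM being the count of a gene scaled to the library total) in every library of each RNA-seq set, and the B cell markers summed to at most 12.5 CPM. The 4 myeloid markers summed to 126 to 135 CPM in KI-JK and to at most 20.5 CPM in SU-DHL-1 RNA-seq libraries, nearly all from CSF1R, while CD14, LYZ and CD68 each stayed below 1 CPM. ZFP91 RNA itself, which does not check an edited gene, was 75.9 to 101 CPM in regrown KO libraries against 86.5 to 94.3 CPM in regrown WT libraries, and 85.8 to 91.7 CPM in parental KO libraries against 111 to 119 CPM in parental WT libraries. CSNK2B reached 76.3 to 80.4 CPM in KI-JK cells with its vector against at most 18.4 CPM with the empty vector, and 247 to 257 CPM against 29.2 to 30.4 CPM in SU-DHL-1. Within the first RNA-seq set, libraries also differed in how long genes stood relative to short ones. Length here was the genomic span of a gene, not that of its transcript. The length slope, the change in log2 deviation over genes per 10-fold span, was -0.09 to -0.04 in regrown KO and 0.06 to 0.26 in regrown WT libraries. In parental KO libraries it was -0.18 to 0.10, and in parental WT libraries -0.12 to 0.02.

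The 3 classes differed widely in abundance. Protein genes took 2.67 to 3.71% of all counts in regrown KO libraries, 3.83 to 4.61% in regrown WT libraries, 3.29 to 4.17% in parental KO libraries and 2.74 to 3.72% in parental WT libraries. The rRNA genes took 0.102 to 0.149% in regrown KO libraries, below every other library of that set: 0.244 to 0.306% in regrown WT, 0.280 to 0.516% in parental KO and 0.347 to 0.415% in parental WT libraries. The tRNA genes took 0.0105 to 0.0136% in regrown KO libraries, 0.0239 to 0.0259% in regrown WT, 0.0155 to 0.0226% in parental KO and 0.0198 to 0.0234% in parental WT libraries. The regrown KO libraries were thus the lowest of the set in both RNA classes that are not messengers, with no overlap with any other group. In DGE the rRNA share was larger, 0.665 to 1.84% over all 12 libraries, and the tRNA share was 0.00755 to 0.0275%. In bulk RNA, fewer cells with a transcript and less of it per cell cannot be told apart.

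**Figure D1:**
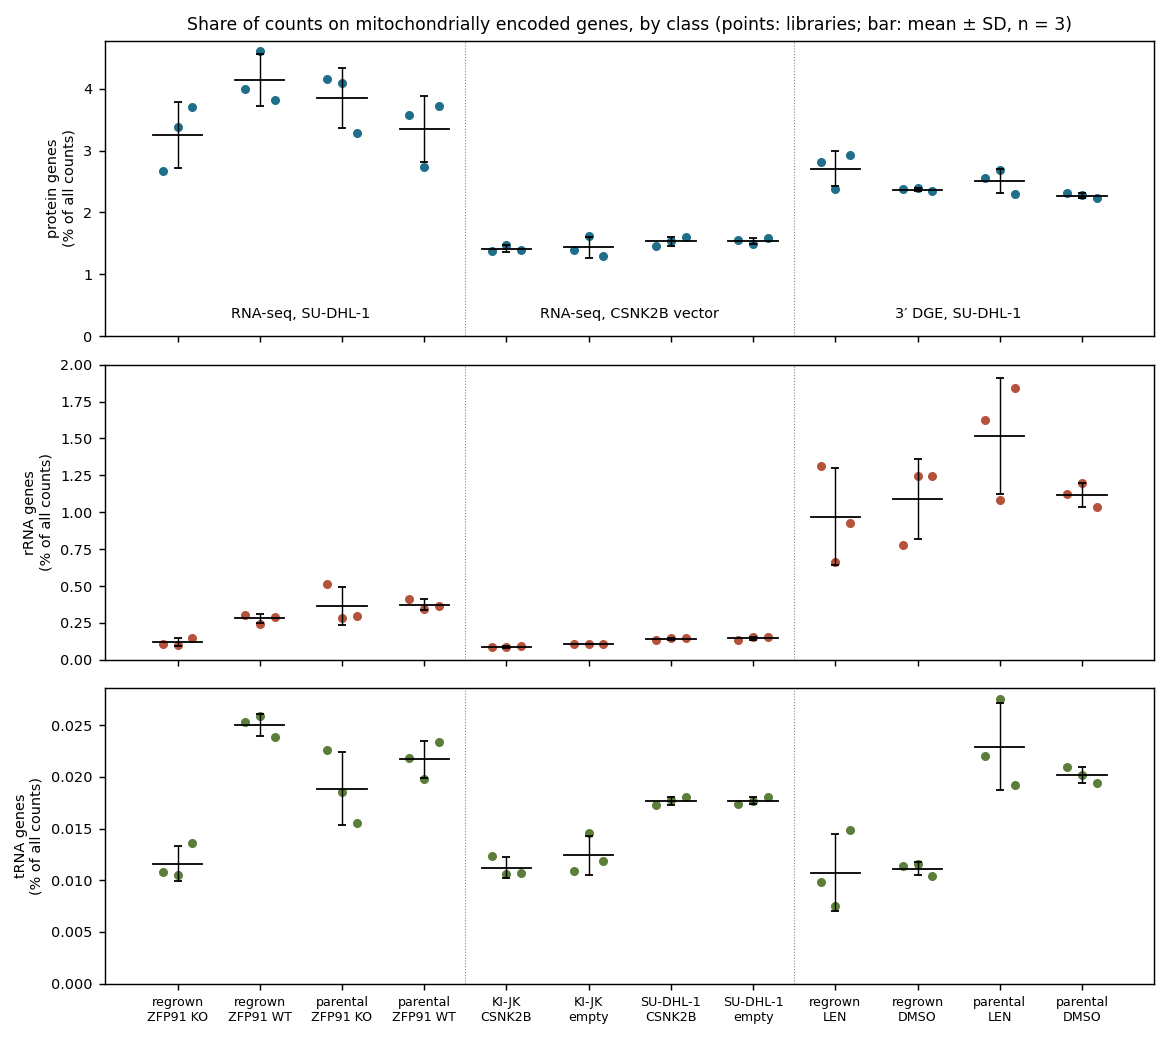
Share of all counts (%) taken by the mitochondrial protein, rRNA and tRNA genes in each of the 36 libraries, by group; points are libraries and bars the mean ± SD of 3. The regrown ZFP91 KO libraries are the lowest of the first RNA-seq set in the rRNA panel (0.102 to 0.149%) and in the tRNA panel (0.0105 to 0.0136%).

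In RNA-seq, levels can be set side by side between genes only per length. In parental WT libraries MT-CO1, the catalytic subunit of cytochrome c oxidase (complex IV), led with 6703 ± 1018 CPM per kb (SD, n = 3 for this and the next values). The other core subunits of complex IV followed, MT-CO2 with 5265 ± 943 and MT-CO3 with 4757 ± 628 CPM per kb. MT-ATP6, which forms the proton channel of ATP synthase (complex V), had 3618 ± 730 CPM per kb. The complex I subunits MT-ND4 and MT-ND4L, which share a transcript and overlap by 7 bases, had 3120.5 ± 520 and 2710 ± 434 CPM per kb. Each of these overlapped the next gene in the order, apart from MT-ND4L, whose 3 libraries were all above those of MT-CYB, the cytochrome b of complex III, with 2079 ± 432 CPM per kb. Below it came MT-ND2 with 1558 ± 280, MT-ND6 with 1270 ± 190, MT-ND1 with 1155 ± 221, MT-ND5 with 1148 ± 159 and MT-ND3 with 907 ± 245 CPM per kb, all complex I subunits and each overlapping the next. MT-ATP8, a small stalk subunit of complex V, was lowest with 310 ± 22.5 CPM per kb and below every library of MT-ND3. It shares 46 bases with MT-ATP6, so reads there may have been split or dropped in counting.

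The order differed in regrown WT libraries, where MT-ATP6 came after MT-CO1 with 5578 ± 284 CPM per kb against 8527 ± 704 for MT-CO1, and MT-CO2, with 3512 ± 765, stood below MT-ND4L with 4223 ± 890 CPM per kb. In KI-JK and SU-DHL-1 cells with the empty vector MT-CO2 was first, with 2597 ± 244 CPM per kb in KI-JK and 3131 ± 172 CPM per kb in SU-DHL-1. MT-CO1 followed with 2409 ± 262 CPM per kb in KI-JK, overlapping MT-CO2, and with 2403 ± 52.6 CPM per kb in SU-DHL-1, below every MT-CO2 library.

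Of the rRNAs, MT-RNR2 of the large ribosomal subunit had 1959 ± 214 CPM per kb in parental WT libraries and MT-RNR1 of the small subunit 724 ± 53.2 CPM per kb, with no overlap. Both are read from the same promoter region, at chromosome MT:1671-3229 and MT:648-1601 (RefSeq, GRCh38.p14). DGE counts come from transcript 3′ ends, so they were not set per length here. In DGE, MT-RNR2 had the highest mean of the 29 listed genes in parental DMSO libraries, with 9720 ± 824 CPM against 5445 CPM for MT-ND4, the next.

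The tRNA counts were concentrated in few genes. Of 43989 tRNA counts in the first RNA-seq set, 37.2% were from MT-TC (cysteine), 26.5% from MT-TP (proline), 23.4% from MT-TN (asparagine) and 5.16% from MT-TY (tyrosine). These genes lie on the light-strand transcript, MT-TN, MT-TC and MT-TY side by side at MT:5657-5729, MT:5761-5826 and MT:5826-5891 and MT-TP at MT:15956-16023, and the 8 tRNA genes of that strand held 94.2% of the tRNA counts. The light-strand share was 94.5% in the SU-DHL-1 vector set and 91.8% in KI-JK, where MT-TN led with 47.5% and 41.4% of the tRNA counts. Per length in parental WT libraries MT-TC had 1100 CPM per kb and MT-TP 991 CPM per kb, while MT-TK (lysine) was lowest of the 22 with 0.554 CPM per kb. MT-TA, MT-TQ, MT-TL2, MT-TK, MT-TM, MT-TF and MT-TW had too few counts to be tested in any comparison. DGE held only 586 tRNA counts over 14 genes, 52.7% of them from MT-TY.

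Regrown WT cells were compared with parental WT cells to see what differed after resistance and long drug-free growth. Most complex I and V messengers were higher, led by MT-ND2 and MT-ATP8, while MT-CO2 was lower, and the rRNAs moved apart, with MT-RNR1 higher and MT-RNR2 lower. Of the 13 protein genes 8 rose and 1 fell, of the 2 rRNAs 1 rose and 1 fell, and of 12 tRNAs tested 4 rose and 0 fell (edgeR quasi-likelihood test, Benjamini-Hochberg adjusted p < 0.05). Of all 13379 genes tested, 43.7% were called, so a share of called genes near that is no result about these genes: 69.2% of the protein genes and 33.3% of the tested tRNAs were called. The median log2 fold change was 0.44 over the protein genes and 0.04 over the tested tRNAs, beside -0.0025 over all genes.

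MT-ND2, a membrane subunit of complex I encoded at MT:4470-5511, had 2811, 3508 and 2924 CPM in regrown WT libraries 1 to 3, against 1691, 1303.5 and 1876 CPM in parental WT libraries. Every regrown library was above every parental one, and the log2 fold change was 1.02 ± 0.13 (SE; adjusted p = 2.31e-05, edgeR). MT-CO2, the complex IV subunit that takes electrons from cytochrome c, encoded at MT:7586-8269, had 2185, 2999 and 2022 CPM in regrown WT libraries, against 3683, 2919 and 4202 CPM in parental WT libraries. The groups overlapped at regrown library 2 and parental library 2, and the log2 fold change was -0.49 ± 0.15 (adjusted p = 0.0165, edgeR). That call was lost without parental WT library 1 or 3 or regrown WT library 1 or 3, under DESeq2, and with the length slope as a covariate, where the fold was -0.05 (adjusted p = 0.872).

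MT-ATP8 had 114, 113 and 125.5 CPM in regrown WT libraries, against 60.7, 69.4 and 62.2 CPM in parental WT libraries. The libraries of each group lay close together, and the log2 fold change was 0.97 ± 0.09 (adjusted p = 1.63e-06, edgeR). Its partner MT-ATP6 had 3683, 4022 and 3691 CPM in regrown WT libraries, against 2784, 1890.5 and 2716 CPM in parental WT libraries, a log2 fold change of 0.72 ± 0.13 (adjusted p = 4.14e-04, edgeR). Neither pair of groups overlapped. MT-ND4L rose by 0.74 ± 0.14 (adjusted p = 8.21e-04), MT-ND4 by 0.59 ± 0.12 and MT-ND1 by 0.58 ± 0.12 (both adjusted p = 0.00147), and MT-CO1 by 0.44 ± 0.11 (adjusted p = 0.00561, edgeR), all 4 without overlap. MT-ND5 was called with a smaller log2 fold change of 0.28 ± 0.11 (adjusted p = 0.0483) and overlapping groups, and kept its call under 4 of 15 alternatives. The log2 fold changes of MT-ND3 (0.44), MT-CYB (0.25), MT-CO3 (0.18) and MT-ND6 (0.15) did not pass.

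MT-RNR1 had 936, 782 and 906 CPM in regrown WT libraries, against 729, 709 and 633 CPM in parental WT libraries. All 3 regrown libraries were above the parental ones, and the log2 fold change was 0.44 ± 0.10 (adjusted p = 0.00175, edgeR). MT-RNR2 had 2119, 1656 and 2020 CPM in regrown WT libraries, against 3417, 2758 and 2988 CPM in parental WT libraries, all 3 regrown libraries being lower (log2 fold change -0.56 ± 0.11, adjusted p = 8.10e-04). The rRNAs thus moved in opposite directions, and the counts of MT-RNR2 per count of MT-RNR1 were 2.12 to 2.26 in regrown WT libraries against 3.89 to 4.72 in parental WT libraries. In DGE that ratio overlapped, at 5.30 to 7.89 in regrown DMSO libraries against 6.07 to 7.60 in parental DMSO libraries. Under lenalidomide it overlapped too, at 5.29 to 7.60 in regrown libraries against 5.84 to 8.965 in parental libraries. With the length slope as a covariate MT-RNR1 was no longer called and MT-RNR2 was.

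Among tRNAs, MT-TC had 109, 102 and 94.8 CPM in regrown WT libraries, against 70.2, 63.2 and 84.4 CPM in parental WT libraries, without overlap (log2 fold change 0.59 ± 0.11, adjusted p = 6.95e-04). MT-TE, for glutamate, rested on 86, 87 and 66 counts in regrown WT libraries, against 35, 25 and 31 counts in parental WT libraries, again without overlap (1.44 ± 0.31, adjusted p = 0.00194). MT-TY rose by 1.02 ± 0.28 (adjusted p = 0.00804) and MT-TN by 0.34 ± 0.12 (adjusted p = 0.035), but the groups of each overlapped, and MT-TY was not called without regrown WT library 1. When libraries were scaled by their totals alone, 11 of the 37 genes rose and 4 fell, against 13 and 2 here, with MT-TP and MT-TT called lower and MT-ND5 and MT-TN no longer called.

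**Figure D2:**
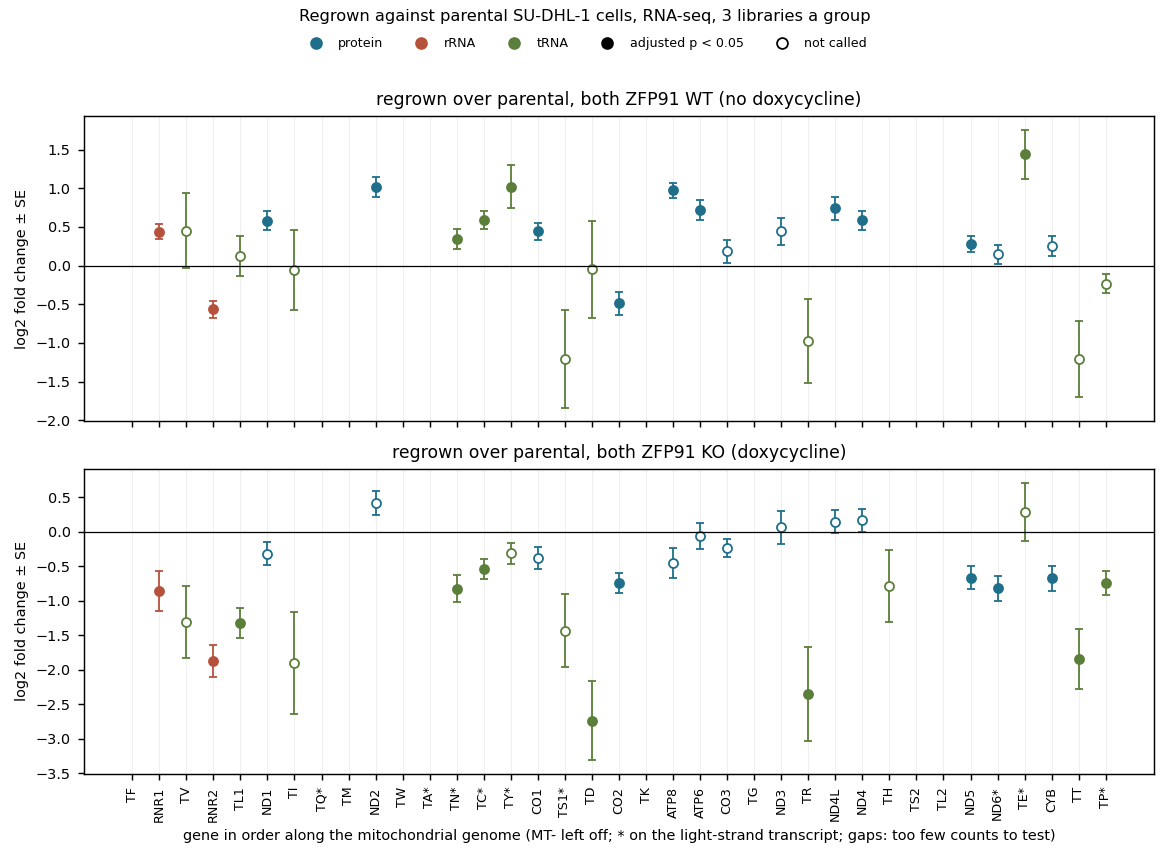
Log2 fold change ± SE of each tested mitochondrial gene in regrown over parental cells, in order along the genome, without doxycycline (upper panel) and with ZFP91 knockout (lower panel); filled points have an adjusted p under 0.05. MT-ND2 has the highest protein value in both panels (1.02 and 0.42, the second not called), and MT-RNR2 is lower in both (-0.56 and -1.87).

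Nuclear partners of these genes were counted in the same comparison, beside the 43.7% of all genes called. Of 78 nuclear subunits of oxidative phosphorylation 4 rose and 42 fell (median log2 fold change -0.39), among them COX4I1 of complex IV with -1.15. Of 76 proteins of the mitochondrial ribosome 4 rose and 38 fell (median -0.36), with MRPS22 at -1.35 and MRPS18B, which rose, at 1.30. Among 19 genes for mitochondrial transcription and replication 2 rose, POLG (the mtDNA polymerase) with 0.84 and TWNK (its helicase) with 0.77, and 4 fell, among them MTERF1, a termination factor that binds downstream of the rRNA genes, with -4.05. Of 40 genes for mitochondrial RNA processing and decay 7 rose and 13 fell, including FASTKD5, which acts in messenger processing, with -1.16. Of 23 short nuclear RNAs without a poly(A) tail only 2 could be tested, and 0 were called (edgeR, 1 at an unadjusted p under 0.05, 0 by DESeq2). RN7SL2, among those tested, had a log2 fold change of -0.55 (adjusted p = 0.0524, edgeR). Its part in the tRNA and rRNA values was not tested.

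Regrown and parental cells were also compared by DGE under DMSO. MT-ND2 was again higher and MT-CO2 again lower: of 13 protein genes 1 rose and 1 fell, of 2 rRNAs 0 were called (0 at an unadjusted p under 0.05, 0 by DESeq2), and of 2 tRNAs tested 1 fell, beside 6.21% of all 5941 genes tested. MT-ND2 had 1969, 1852 and 1594 CPM in regrown DMSO libraries, against 1252, 1222 and 1108 CPM in parental DMSO libraries (log2 fold change 0.59 ± 0.15, adjusted p = 0.012, edgeR). MT-CO2 had 2323, 2440 and 2378 CPM in regrown DMSO libraries, against 3389, 3222 and 3577 CPM in parental DMSO libraries (-0.52 ± 0.13, adjusted p = 0.0111). Neither gene's groups overlapped, although leaving out parental DMSO library 1, 2 or 3 left MT-TY as the 1 called gene.

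Under lenalidomide MT-ND2, MT-CO2 and MT-TY were called again, as was MT-RNR2. MT-ND2 had 2038, 2220 and 2245 CPM in regrown LEN libraries, against 1266, 1453 and 1034 CPM in parental LEN libraries (0.74 ± 0.20, adjusted p = 0.0385, edgeR), and MT-CO2 had 2816, 2447 and 2918 CPM against 4269, 4719 and 3825 CPM (-0.68 ± 0.17, adjusted p = 0.0238). MT-RNR2 fell by 0.68 ± 0.19 on the log2 scale with overlapping groups (adjusted p = 0.0421). Together with MT-TY, 1 gene rose and 3 fell of 16 tested, beside 2.78% of all 4648 genes tested. The count was 0 without parental LEN library 1 or regrown LEN library 3, 1 without regrown LEN library 2, and 2 without parental LEN library 2 or 3.

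Counts of MT-CO2 per count of MT-ND2 describe the pair within each library, without regard to scaling; the pair was chosen after the values were seen. The ratio was 0.691 to 0.855 in regrown WT libraries against 2.18 to 2.24 in parental WT libraries, and 0.828 to 1.03 in regrown KO libraries against 1.81 to 2.11 in parental KO libraries. In DGE it was 1.18 to 1.49 in regrown DMSO libraries against 2.64 to 3.23 in parental DMSO libraries, and 1.10 to 1.38 in regrown LEN libraries against 3.25 to 3.70 in parental LEN libraries. No regrown library reached a parental one in either assay.

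**Figure D3:**
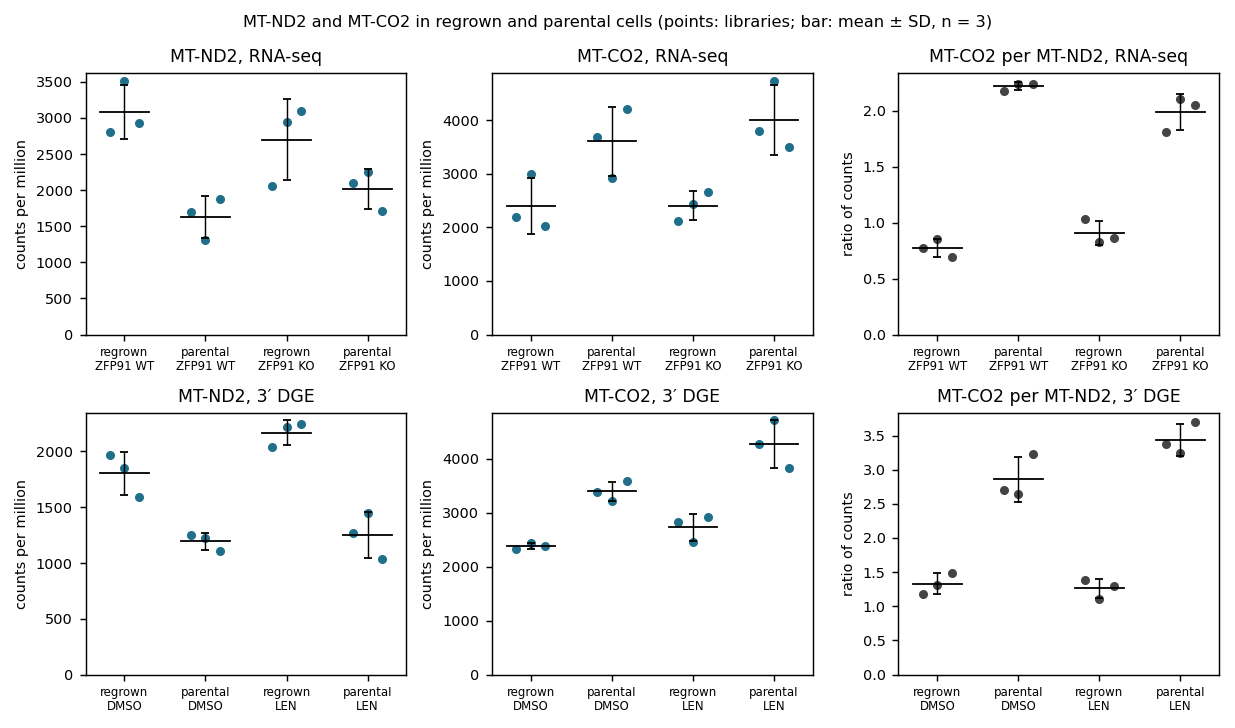
CPM of MT-ND2 and MT-CO2, and counts of MT-CO2 per count of MT-ND2, in regrown and parental cells by RNA-seq (upper row) and DGE (lower row); points are libraries and bars the mean ± SD of 3. In the ratio panels the regrown libraries lie at 0.691 to 1.03 by RNA-seq and 1.10 to 1.49 by DGE, below all parental libraries.

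MT-TY went opposite ways in DGE and in RNA-seq without doxycycline. In DGE it had 39.0, 54.0 and 25.1 CPM in regrown DMSO libraries (14, 20 and 7 counts), against 123, 115 and 95.6 CPM in parental DMSO libraries (43, 40 and 32 counts), all 3 regrown libraries being lower (-1.47 ± 0.31, adjusted p = 0.00242). Under lenalidomide it had 40.9, 52.9 and 51.5 CPM in regrown libraries (5, 7 and 18 counts), against 140, 177 and 144 CPM in parental libraries (47, 70 and 6 counts). The log2 fold change was -1.70 ± 0.39 (adjusted p = 0.0134, edgeR). That call was kept under 10 of 14 alternatives. It was lost under DESeq2 and without parental LEN library 1 or 2 or regrown LEN library 3. RNA-seq without doxycycline gave a rise of 1.02, with overlapping groups and not called without regrown WT library 1. With ZFP91 knockout, RNA-seq gave 6.16 to 8.18 CPM in regrown KO libraries against 8.11 to 9.51 CPM in parental KO libraries. Those groups overlapped and MT-TY was not called there. MT-TY shares 1 base with MT-TC, the assays were aligned to different genome builds, and the cause of the difference was not tested. Among nuclear partners in DGE, 2 of 73 oxidative phosphorylation subunits rose and 2 fell under DMSO, beside 6.21% of all genes called. Under lenalidomide 0 of 72 rose and 1 fell, beside 2.78% of all genes.

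Regrown KO cells were also compared with parental KO cells. No mitochondrial gene rose, while 4 of 13 protein genes, 2 of 2 rRNAs and 7 of 13 tested tRNAs fell, beside 38.4% of all 13444 genes tested. The median log2 fold change was -0.32 over protein genes, -1.36 over rRNAs and -1.31 over tested tRNAs, beside 2.28e-05 over all genes. Some tested tRNAs passed the filter on counts through the parental KO libraries, where they stood higher. The count and median of the tRNAs partly reflect that filter. MT-RNR2 had 750, 717 and 954 CPM in regrown KO libraries, against 4122, 2281 and 2410 CPM in parental KO libraries. All regrown libraries were far below the parental ones (log2 fold change -1.87 ± 0.23, adjusted p = 2.59e-04, edgeR). MT-RNR1 had 327, 307 and 541 CPM in regrown KO libraries, against 1038, 522 and 570 CPM in parental KO libraries, with overlap (-0.86 ± 0.29, adjusted p = 0.0435), and kept its call under 9 of 15 alternatives.

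The protein genes that fell were MT-CO2 by 0.74 ± 0.14 (adjusted p = 0.00321), MT-ND6 by 0.82 ± 0.18 (adjusted p = 0.00598), MT-ND5 by 0.67 ± 0.17 (adjusted p = 0.0119) and MT-CYB by 0.67 ± 0.18 (adjusted p = 0.0158), on the log2 scale and all without overlap. MT-CO2 had 2121, 2438 and 2655 CPM in regrown KO libraries, against 3792, 4730 and 3490 CPM in parental KO libraries. MT-ND2 was at 2054, 2944 and 3095 CPM in regrown KO libraries, against 2097, 2247 and 1704 CPM in parental KO libraries, overlapping and not called (0.42 ± 0.17, adjusted p = 0.0875). With the length slope as a covariate MT-ND2 was called (adjusted p = 0.00515, edgeR). In all 20 mitochondrial genes were called with it, 1 of them higher, beside 7403 of all 13444 genes.

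The tRNAs that fell with the most counts were MT-TP, with 31.8, 28.0 and 35.1 CPM in regrown KO libraries against 68.3, 46.0 and 44.4 CPM in parental KO libraries (-0.74 ± 0.17, adjusted p = 0.00781), and MT-TC, with 41.6, 43.6 and 51.6 CPM against 76.6, 67.5 and 54.3 CPM (-0.54 ± 0.14, adjusted p = 0.0142). Neither overlapped, the closest libraries of MT-TC being 51.6 and 54.3 CPM. MT-TN (-0.83), MT-TL1 for leucine (-1.33), MT-TT for threonine (-1.85), MT-TR for arginine (-2.36) and MT-TD for aspartate (-2.74) fell too. However, MT-TT (4 to 18 counts), MT-TR (1 to 7 counts) and MT-TD (3 to 5 counts) were below 1 CPM in every regrown KO library. In parental KO libraries they had 1.88 to 1.94, 0.504 to 1.88 and 0.818 to 2.21 CPM. They passed the filter on counts through those parental libraries, which favoured a fall beforehand. Of the 23 short nuclear RNAs 3 could be tested in the same libraries, and 2 fell. They were the signal recognition particle RNA RN7SL2, by 1.28 (adjusted p = 0.00282, edgeR), and the small nucleolar RNA SNORD3A, by 2.33 (adjusted p = 0.0139), on the log2 scale. Their part in the rRNA and tRNA result was not tested. Beside the 38.4% of all genes called, of 77 nuclear oxidative phosphorylation subunits 4 rose and 11 fell, of 76 mitochondrial ribosomal proteins 9 rose and 19 fell, and MTERF1 (-3.49) and POLRMT, the mitochondrial RNA polymerase (-0.79), were lower.

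ZFP91 knockout was then compared with WT within each cell population. In regrown cells 7 of 13 protein genes, 2 of 2 rRNAs and 6 of 9 tested tRNAs fell and 0 rose, beside 31.9% of all 13107 genes tested. With the length slope as a covariate 0 of these genes and 0 of all 13107 were called (edgeR; 10 of these genes at an unadjusted p under 0.05), and the slope was below 0 in every regrown KO library and above 0 in every regrown WT library. The median log2 fold change was -0.43 over protein genes, -1.25 over rRNAs and -1.09 over tested tRNAs, beside 0.0034 over all genes. These comparisons share their WT or KO libraries with the ones above, so the values are not independent of them.

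MT-RNR2 had the values given above in regrown KO libraries, 717 to 954 CPM, against 1656 to 2119 CPM in regrown WT libraries (-1.30 ± 0.12, adjusted p = 8.04e-05, edgeR). MT-RNR1 was at 307 to 541 CPM in regrown KO libraries against 782 to 936 CPM in regrown WT libraries (-1.19 ± 0.18, adjusted p = 6.84e-04). The groups of both were apart, and MT-RNR2 per MT-RNR1 was 1.77 to 2.33 in regrown KO libraries against 2.12 to 2.26 in regrown WT libraries.

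Among the messengers MT-ND6 had 332, 347 and 418 CPM in regrown KO libraries, against 776, 711 and 583 CPM in regrown WT libraries (-0.95 ± 0.12, adjusted p = 3.24e-04, edgeR). MT-ND5, next to it on the opposite strand, had 1067, 1263 and 1452 CPM in regrown KO libraries, against 2524, 2371 and 2188 CPM in regrown WT libraries (-0.94 ± 0.11, adjusted p = 3.02e-04). All KO libraries of both genes were lower than all WT ones. MT-ATP8 fell by 0.79 ± 0.16 (adjusted p = 0.00251), MT-CYB by 0.59 ± 0.13 (adjusted p = 0.00424), MT-ND1 by 0.58 ± 0.12 (adjusted p = 0.00418) and MT-CO1 by 0.55 ± 0.11 (adjusted p = 0.00338) on the log2 scale, also without overlap, and MT-ND4L (-0.43 ± 0.15, adjusted p = 0.0458) with overlap. MT-CO1 had 7848, 9124 and 10731 CPM in regrown KO libraries, against 13289, 14158 and 12001 CPM in regrown WT libraries. The other protein genes did not pass, with log2 fold changes of -0.01 for MT-ND3, -0.04 for MT-CO2, -0.19 for MT-ND4, -0.21 for MT-ATP6, -0.23 for MT-ND2 and -0.24 for MT-CO3.

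MT-TC was at 41.6 to 51.6 CPM in regrown KO libraries against 94.8 to 109 CPM in regrown WT libraries (-1.20 ± 0.10, adjusted p = 6.93e-05, edgeR). MT-TN had 20.0, 19.9 and 31.2 CPM in regrown KO libraries, against 53.3, 69.1 and 65.5 CPM in regrown WT libraries (-1.44 ± 0.17, adjusted p = 3.08e-04). Both were lower in each of the 3 pools. MT-TL1 (-1.49), MT-TY (-1.09), MT-TE (-0.83) and MT-TP (-0.80) fell as well. MT-TE kept its call under 6 of 15 alternatives and was not called without any 1 of 5 of the 6 libraries, the exception being regrown KO library 3; MT-ND4L, above, also kept it under 6 of 15 and was not called without regrown WT library 2 or 3 or any 1 regrown KO library. With the length slope as a covariate MT-RNR2 had -0.93 (adjusted p = 0.191) and MT-TC -1.24 (adjusted p = 0.0747).

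**Figure D4:**
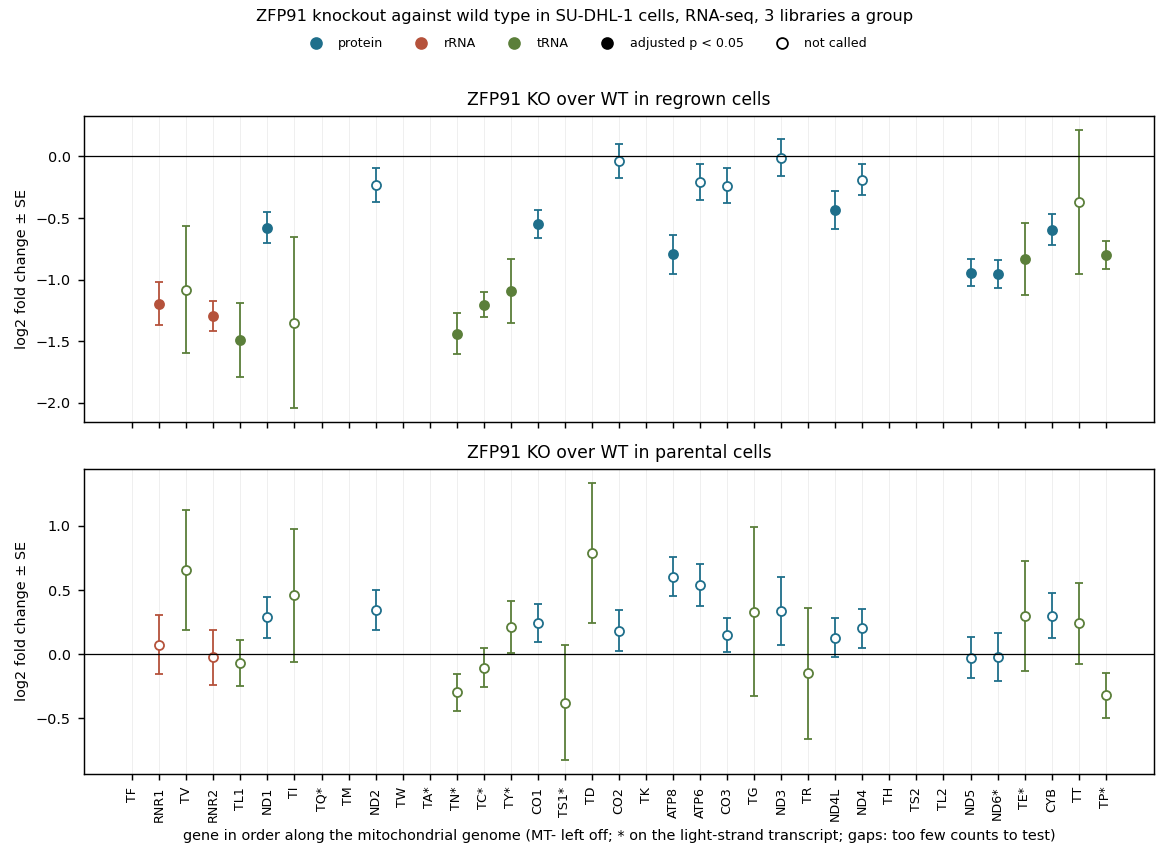
Log2 fold change ± SE of each tested mitochondrial gene for ZFP91 KO over WT, in order along the genome, in regrown cells (upper panel) and parental cells (lower panel); filled points have an adjusted p under 0.05. In regrown cells every point is at or below 0, from -0.01 for MT-ND3 to -1.49 for MT-TL1, and in parental cells no point is filled.

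Nuclear genes for the same machinery were also counted in regrown cells, beside the 31.9% of all genes called there and 0 called with the length slope as a covariate. Of 77 nuclear oxidative phosphorylation subunits 55 rose and 1 fell in KO against WT (median log2 fold change 0.52), including 11 of 11 of complex IV such as COX6A1 (1.21) and COX7C (1.04). The gene that fell was UQCRC1 of complex III, with -0.35. Of 76 mitochondrial ribosomal proteins 50 rose and 1 fell (median 0.36), with MRPL14 at 0.98. Of 40 RNA processing genes 15 rose and 0 fell, among them SLIRP, which binds mitochondrial messengers, with 0.72, and PNPT1, the mitochondrial polynucleotide phosphorylase, with 0.40. Among 18 transcription and replication genes 5 rose, such as MTERF3 (0.86) and TFB2M (0.73), and 2 fell, including POLRMT (-0.42). Only 2 of the 23 short nuclear RNAs could be tested here. RN7SL2 fell by 0.51 on the log2 scale (adjusted p = 0.0108, edgeR) while the small nucleolar RNA SNORA73B rose by 1.02 (adjusted p = 0.0197). Their part in the tRNA and rRNA result was not tested.

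In parental cells 0 of 28 tested mitochondrial genes were called for ZFP91 knockout (edgeR), beside 0.427% of all 13354 genes tested; 2 of them had an unadjusted p under 0.05, and DESeq2 called 1. Those 2 were the complex V genes, the only protein genes whose groups did not overlap. MT-ATP8 had 120, 87.1 and 78.3 CPM in parental KO libraries, against 60.7, 69.4 and 62.2 CPM in parental WT libraries (0.60 ± 0.15, adjusted p = 0.216, edgeR). MT-ATP6 had 3788, 3757.5 and 2967 CPM in parental KO libraries, against 2784, 1890.5 and 2716 CPM in parental WT libraries (0.54 ± 0.17, adjusted p = 0.344). The log2 fold change was 0.07 for MT-RNR1 and -0.02 for MT-RNR2 (SE 0.23 and 0.21). The 2 tRNAs with the highest level, MT-TC and MT-TP, had -0.11 and -0.32. Of 78 nuclear oxidative phosphorylation subunits 0 were called (edgeR; 1 at an unadjusted p under 0.05, 1 by DESeq2), and of 76 mitochondrial ribosomal proteins 0 were called (0 at an unadjusted p under 0.05, 0 by DESeq2). With the length slope as a covariate 9 mitochondrial genes were called, 7 higher and 2 lower, beside 1238 of all 13354 genes.

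The difference between the 2 knockout responses was tested itself as an interaction. Of 29 genes tested 0 were higher and 12 lower in the regrown response, 6 protein genes, both rRNAs and 4 tRNAs, beside 9.81% of all 14267 genes tested. The difference was -1.28 for MT-RNR2 (adjusted p = 0.0241, edgeR) and -1.28 for MT-RNR1 (adjusted p = 0.0336), -1.41 for MT-ATP8 (adjusted p = 0.0238) and -1.11 for MT-TC (adjusted p = 0.0238). The call was fragile over libraries. Without parental WT library 2 or 3, parental KO library 3, regrown WT library 1 or 3, or regrown KO library 1 or 2, 0 of the 12 and 0 of all genes were called, and without parental KO library 1, 7 were. With the length slope as a covariate 3 remained, MT-ATP8, MT-TN and MT-TC.

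Lenalidomide was compared with DMSO after 18 h by DGE. In parental cells 0 of 13 protein genes, 1 of 2 rRNAs and 0 of 2 tested tRNAs were called (edgeR), beside 0.845% of all 5796 genes tested; 4 protein genes and 1 tRNA had an unadjusted p under 0.05, and DESeq2 called 0 of the 17. In all 6 of the 17 had an unadjusted p under 0.05, beside 503 of the 5796 genes. Parental LEN library 3 held 41571 counts, against 335651 and 395827 in the other parental LEN libraries, and without it 10 of these genes had an unadjusted p under 0.05 and 105 of 6227 genes were called. MT-RNR2 had 14575, 9716 and 15732 CPM in parental LEN libraries, against 9647, 10578 and 8934 CPM in parental DMSO libraries (0.47 ± 0.11, adjusted p = 0.0306, edgeR). The groups overlapped at LEN library 2, and the call was lost without LEN library 1 or without DMSO library 1, 2 or 3, and under DESeq2; without LEN library 3, 2 genes were called. MT-CO2 had 4269, 4719 and 3825 CPM in parental LEN libraries, against 3389, 3222 and 3577 CPM in parental DMSO libraries, without overlap but not past the test (0.38 ± 0.12, adjusted p = 0.219). In regrown cells 0 of 17 genes were called, beside 0.23% of all 5661 genes tested, with 1 gene, MT-CYB, at an unadjusted p under 0.05 and 0 called by DESeq2. MT-RNR2 there had 11632, 5596 and 7846 CPM in LEN libraries, against 6688, 11076 and 10469 CPM in DMSO libraries, with overlapping groups (-0.15 ± 0.20). The difference between the responses was called for 0 of 17 genes, as for 0% of all 6838 genes tested, with 4 genes at an unadjusted p under 0.05 and 0 called by DESeq2. MT-ND5 had the lowest of those p-values, with a difference of -0.88 ± 0.29 (adjusted p = 0.9998). Of 73 nuclear oxidative phosphorylation subunits in parental cells 0 were called (edgeR; 6 at an unadjusted p under 0.05, 0 by DESeq2), and of 72 in regrown cells 0 (0 at an unadjusted p under 0.05, 0 by DESeq2). At this depth the SE of a protein gene's log2 fold change was 0.11 to 0.28 in parental cells, and changes such as the 0.38 of MT-CO2 did not pass.

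CSNK2B expression went with lower rRNA in KI-JK. MT-RNR2 had 608, 621 and 675 CPM in KI-JK CSNK2B libraries, against 810, 838 and 782 CPM in KI-JK empty-vector libraries (-0.33 ± 0.04, adjusted p = 6.33e-07, edgeR). MT-RNR1 had 237, 223 and 262 CPM in KI-JK CSNK2B libraries, against 271, 263 and 283 CPM with the empty vector (-0.16 ± 0.05, adjusted p = 0.0104). The groups of both genes were apart, for MT-RNR1 only just, at 262 and 263 CPM. Of the protein genes MT-CYB rose by 0.13 ± 0.04 (adjusted p = 0.0332) with overlapping groups, 12 did not pass, and 0 of 12 tested tRNAs were called (2 at an unadjusted p under 0.05, 0 by DESeq2), beside 35.7% of all 14104 genes tested. The count of 3 called genes was 10 without empty-vector library 2, 6 without CSNK2B library 1 and 1 without CSNK2B library 2; scaled by library totals alone, 0 rose and 4 fell.

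In SU-DHL-1 with the CSNK2B vector 3 of 13 protein genes fell and 0 of 2 rRNAs were called (0 at an unadjusted p under 0.05, 0 by DESeq2), of 25 genes tested, beside 6.74% of all 13727 genes tested. MT-ND6 had 334, 331 and 406 CPM in SU-DHL-1 CSNK2B libraries, against 429, 405 and 459.5 CPM with the empty vector (-0.28 ± 0.05, adjusted p = 0.00123, edgeR). The groups just met, at CSNK2B library 3 and empty-vector library 2. MT-ATP6 fell by 0.15 ± 0.04 (adjusted p = 0.0153) and MT-ND3 by 0.14 ± 0.04 (adjusted p = 0.0304) on the log2 scale. Only 1 gene was called without empty-vector library 1 or CSNK2B library 2. MT-RNR2 had 1134, 1214 and 1259 CPM in CSNK2B libraries, against 1173, 1278 and 1288 CPM with the empty vector, overlapping (-0.06). MT-RNR1 had 229, 247 and 240 CPM against 180, 246 and 236 CPM (0.12), and of 10 tested tRNAs 0 were called (4 at an unadjusted p under 0.05, 0 by DESeq2), the highest being MT-TN and MT-TC.

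The response differed between the lines for both rRNAs and for 0 of 13 protein genes and 0 of 14 tested tRNAs, beside 19.2% of all 15564 genes tested. In the other classes 2 protein genes and 5 tRNAs had an unadjusted p under 0.05, and DESeq2 called 0 of either class. CSNK2B itself rose by 2.19 on the log2 scale in KI-JK and by 3.06 in SU-DHL-1. Line, serum, table and the size of that rise cannot be told apart here. The KI-JK minus SU-DHL-1 difference was -0.26 ± 0.06 for MT-RNR2 (adjusted p = 0.0012, edgeR) and -0.26 ± 0.09 for MT-RNR1 (adjusted p = 0.0407), and MT-RNR2 was called under each of 19 alternatives. MT-RNR1 kept its call under 11 of the 19. It was not called under DESeq2 (adjusted p = 0.231), nor without KI-JK empty-vector library 1 or 3, KI-JK CSNK2B library 1 or 2, SU-DHL-1 empty-vector library 1 or SU-DHL-1 CSNK2B library 2 or 3, and without SU-DHL-1 empty-vector library 1 its difference was -0.14 (adjusted p = 0.234). With DESeq2 size factors 1 gene was higher and 2 lower, against 0 and 2 here. The count was 9 without KI-JK empty-vector library 2, 5 without KI-JK CSNK2B library 1, and 1 without KI-JK CSNK2B library 2, SU-DHL-1 empty-vector library 1 or SU-DHL-1 CSNK2B library 2. RN7SL2 fell by 0.74 on the log2 scale in KI-JK (adjusted p = 1.12e-05) and had 0.08 in SU-DHL-1 (adjusted p = 0.827), a difference of -0.81 (adjusted p = 0.00626), and its part in the rRNA result was not tested. In KI-JK, beside the 35.7% of all genes called, 29 of 77 mitochondrial ribosomal proteins rose and 1 fell, 18 of 40 RNA processing genes rose and 1 fell, with PNPT1 at 0.46 and LRPPRC, a partner of SLIRP, at 0.28, and 8 of 19 transcription and replication genes rose and 2 fell, with TWNK at 0.54 and TFAM, which packages mtDNA, at 0.26. In SU-DHL-1, beside 6.74%, 5 of 76 mitochondrial ribosomal proteins rose and 0 fell. Of 78 nuclear oxidative phosphorylation subunits 5 rose and 5 fell in KI-JK, and 3 rose and 2 fell in SU-DHL-1.

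**Figure D5:**
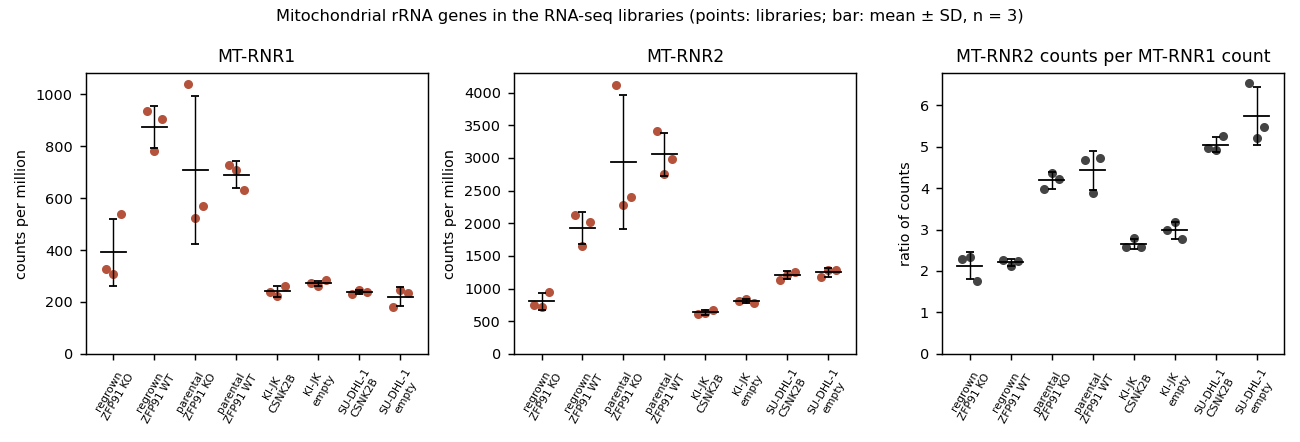
CPM of MT-RNR1 and MT-RNR2 and counts of MT-RNR2 per count of MT-RNR1 in the 8 RNA-seq groups; points are libraries and bars the mean ± SD of 3. MT-RNR2 is lowest in regrown KO cells (717 to 954 CPM) within the first set, and in KI-JK it is 608 to 675 CPM with the CSNK2B vector, below 782 to 838 CPM with the empty vector.

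With the empty vector, KI-JK had less MT-ND6, MT-ND3, MT-ND5 and MT-CYB than SU-DHL-1, less MT-RNR2 and more MT-RNR1. Of 13 protein genes 3 rose and 5 fell, of 2 rRNAs 1 rose and 1 fell, and of 10 tested tRNAs 0 rose and 5 fell, beside 78.8% of all 14786 genes tested. MT-ND6 had 190, 232 and 184 CPM in KI-JK libraries, against 429, 405 and 459.5 CPM in SU-DHL-1 libraries (-1.05 ± 0.06, adjusted p = 5.30e-17, edgeR). MT-ND3 was at 221 to 287 CPM in KI-JK against 467 to 499 CPM in SU-DHL-1 (-0.89), MT-ND5 at 662 to 831 CPM against 1007 to 1180 CPM (-0.55), and MT-CYB at 607 to 720 CPM against 924 to 1001 CPM (-0.52). None of these groups overlapped. MT-CO2 fell by 0.23, and MT-ATP8 (0.28), MT-ND4 (0.26) and MT-ATP6 (0.20) rose.

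The rRNAs again moved apart, MT-RNR1 with 263 to 283 CPM in KI-JK against 180 to 246 CPM in SU-DHL-1 (0.36 ± 0.06, adjusted p = 4.53e-06, edgeR), and MT-RNR2 with 782 to 838 CPM against 1173 to 1288 CPM (-0.58 ± 0.04, adjusted p = 1.47e-14). MT-RNR2 per MT-RNR1 was 2.76 to 3.19 in KI-JK against 5.20 to 6.53 in SU-DHL-1. Among tRNAs MT-TP was at 13.6 to 18.4 CPM in KI-JK against 32.5 to 35.2 CPM in SU-DHL-1 (-1.06) and MT-TN at 43.9 to 65.3 CPM against 78.0 to 85.0 CPM (-0.60), both apart. MT-TT (-1.67), MT-TE (-1.34) and MT-TH for histidine (-0.80) fell too, on 8 to 27, 9 to 12 and 15 to 33 counts in KI-JK libraries. MT-TT and MT-TE may have passed the filter on counts only through SU-DHL-1 libraries, which would favour a fall beforehand. MT-TH kept its call under 10 of 13 alternatives. The lines differ in serum and stand in separate tables, so line, serum and table cannot be told apart. Among nuclear partners, beside the 78.8% of all genes called, the counts were 16 rising and 47 falling of 78 oxidative phosphorylation subunits (median -0.25), and 10 rising and 56 falling of 76 mitochondrial ribosomal proteins (median -0.49). POLG had -1.42 and TFAM -0.54, among 4 rises and 12 falls of 19 transcription and replication genes.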

How the data were processed

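RNA-seq and DGE tables were analysed as deposited: whole-number counts per gene, not normalized by the authors. Per the submitters' processing notes, the build was hg19 for DGE, with FastQC, Bowtie2 2.2.3 and DESeq2 listed, and hg38 for RNA-seq, with edgeR 3.24.3, DESeq2 1.20.0 and STAR 2.6.1d listed; per the labels, libraries were made from total RNA by standard Illumina protocols. The counting tool and any collapse of molecular identifiers were not given in the sources used here. The PRO-seq table lists no mitochondrial gene, and the ChIP-seq samples were not analysed here.

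Each comparison was fitted on all genes of its table with edgeR 4.0.16 in R 4.3.3 (filterByExpr, TMM, glmQLFit, glmQLFTest, two-sided), with the 3 libraries of each group compared, and p-values were adjusted by Benjamini-Hochberg over all genes tested. The tests of differences between responses fitted 4 groups together. SE was the log2 fold change divided by the root of F. A gene was called at an adjusted p < 0.05. CPM used library totals, and lengths for CPM per kb came from RefSeq GRCh38.p14. The fit was tested on simulated counts with known changes.

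All 37 genes were accounted for; protein and rRNA genes could be named in any comparison, and tRNAs where called or, failing that, the 2 with the highest mean. Up to 4 called genes by smallest p, or the 2 with the smallest p where none was called, could be named from each list of nuclear genes, and ZFP91 and CSNK2B were given as checks of the labels. The genes, lists and tests were chosen with earlier results of these data known. Lists and classes got no test.

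The labels name regrown line 1, 2 or 3, so same-numbered regrown libraries come from the same pool. Their deviations correlated at 0.0057, 0.043 and 0.10 between KO and WT, and at -0.068, 0.12 and 0.048 between lenalidomide and DMSO; a block for the pool left 15 and 0 called genes. Elsewhere the numbers pair nothing by label. No 2 libraries of a group held counts equal within sampling noise (lowest chi-square per degree of freedom 1.34). Counts at nuclear copies of mitochondrial genes were 0.167 to 0.693% of the mitochondrial counts, and reads shared with them are uncertain. Alternatives were other scalings and filters, DESeq2 1.42.0, a replicate block, all groups in 1 fit, leaving out each library, and, for the ZFP91 set, a covariate for long against short genes. That covariate used the genomic span, which 13113 of 14238 genes had (92.1%).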

Additional observations from a re-analysis of the deposited data

Results flagged for a closer look

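The response to ZFP91 knockout differed between regrown and parental cells, by the interaction test, for 12 mitochondrial genes, all lower in the regrown response. Among protein genes the difference in log2 fold change was -0.88 for MT-ND1 (adjusted p = 0.033, edgeR), -0.93 for MT-ND5 (adjusted p = 0.0258), -0.94 for MT-ND6 (adjusted p = 0.0325), -0.90 for MT-CYB (adjusted p = 0.0359), -0.80 for MT-CO1 (adjusted p = 0.0326) and -1.41 for MT-ATP8 (adjusted p = 0.0238). Among rRNAs it was -1.28 for MT-RNR1 (adjusted p = 0.0336) and -1.28 for MT-RNR2 (adjusted p = 0.0241). Among tRNAs it was -1.15 for MT-TN (adjusted p = 0.0245), -1.11 for MT-TC (adjusted p = 0.0238), -1.43 for MT-TL1 (adjusted p = 0.0291) and -1.31 for MT-TY (adjusted p = 0.0413). MT-RNR2 was at 717 to 954 CPM in the regrown KO libraries, below every library of the other 3 groups, and the same held for MT-ND5, MT-ND6, MT-TN, MT-TC and MT-TL1 but not for the other 6 genes. The 12 genes were picked by a test on these same libraries, so that order is a description and adds no separate support. The share of all genes with that order was not counted, so it is no result about these genes. Of the 12 calls 0 were left without parental WT library 2 or 3, parental KO library 3, regrown WT library 1 or 3, or regrown KO library 1 or 2. Groups of 3 libraries were too small to test single libraries as outliers.

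The response to CSNK2B differed between the lines for both rRNAs, with a KI-JK minus SU-DHL-1 difference of -0.26 for MT-RNR1 (adjusted p = 0.0407, edgeR) and -0.26 for MT-RNR2 (adjusted p = 0.0012). They were not equally stable: MT-RNR2 kept its call under 19 of 19 alternatives and MT-RNR1 under 11 of 19, with an adjusted p of up to 0.234. Line, serum, table and the size of the CSNK2B rise cannot be told apart in this difference.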

How the results depend on the processing

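Counts of called mitochondrial genes stayed within 1.5 times of the reported count under the alternatives other than leaving out a library, apart from these. For regrown against parental cells with knockout (13), no filter gave 20 and the length covariate 20. For ZFP91 knockout in parental cells (0), no filter gave 2, DESeq2 1 and the covariate 9, and in regrown cells (15) the covariate gave 0. Over all genes, in the same order, the covariate called 7403 of 13444, 1238 of 13354 and 0 of 13107. For CSNK2B in KI-JK (3), no filter gave 6 and the replicate block 6. For lenalidomide in parental cells (1), no filter, a filter at 1 CPM, DESeq2 and all groups in 1 fit gave 0. For regrown against parental cells under lenalidomide (4), no filter, the 1 CPM filter and DESeq2 gave 2. For the difference between knockout responses (12), the covariate gave 3. For the difference between CSNK2B responses (2), the 1 CPM filter gave 4, DESeq2 1 and the replicate block 8. The cause was not tested. Leaving out 1 library gave 12 to 14 for regrown against parental cells without doxycycline (15), 9 to 16 with knockout, 0 to 0 and 13 to 14 for knockout in parental and regrown cells, 1 to 3 and 1 to 10 for CSNK2B in SU-DHL-1 and KI-JK, 14 to 19 between lines (15), 0 to 2 and 0 to 0 for lenalidomide in parental and regrown cells, 1 to 3 under DMSO (3), 0 to 6 under lenalidomide, 0 to 13 and 1 to 9 for the knockout and CSNK2B differences and 0 to 0 for the lenalidomide difference. The replicate block changed no other count by over 1.5 times; where the labels give no pairing, every library correlated best with its own number for CSNK2B in SU-DHL-1 and for regrown against parental cells under DMSO only. Of 4936 values for single genes 4578 kept direction and call, 238 lost a call, 120 gained one and 0 reversed. No scaling moved the median of all genes by over 0.1 on the log2 scale. Depth limits the tRNAs, of which 9 to 14 were tested by RNA-seq and 1 or 2 by DGE.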

Other observations

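Other nuclear lists of mitochondrial function were counted beside the share of all genes called in the same comparison, and a share near it is no result about a list. Of 19 mitochondrial aminoacyl-tRNA synthetases, which charge the tRNAs, 4 rose and 3 fell in regrown WT against parental WT cells, beside 43.7% of all genes, with VARS2 at 1.29 and KARS1, which also serves the cytosol, at -0.92 on the log2 scale (adjusted p = 2.63e-07 and 1.09e-06, edgeR). With ZFP91 knockout 1 rose and 4 fell in regrown against parental cells, beside 38.4%, and VARS2 was at 1.19 and KARS1 at -1.11. For knockout itself 3 rose and 1 fell in regrown cells, beside 31.9%, LARS2 being lower (-0.39), and with the length slope as a covariate 0 of all genes were called there. In parental cells 0 of 19 were called, beside 0.427% (edgeR; 3 at an unadjusted p under 0.05, 0 by DESeq2).

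Of 12 tested regulators of biogenesis and mitophagy 4 rose and 4 fell in regrown WT against parental WT cells, beside 43.7% of all genes, among them the mitophagy receptor BNIP3 (-2.57) and the transcription factor subunit GABPB1 (1.07). BNIP3 fell after knockout in parental cells too, by 0.77 on the log2 scale (adjusted p = 0.0214), as did BNIP3L, by 0.56 (adjusted p = 0.0485), 2 of 12 tested, beside 0.427% of all genes. Of 12 mitochondrial chaperones and proteases 0 rose and 5 fell in regrown WT against parental WT cells, again beside 43.7%, including SPG7 (-0.94), LONP1 (-0.71) and CLPP (-0.71), while 2 rose and 0 fell for knockout in regrown cells, beside 31.9%, HSPE1 (1.24) and HTRA2 (0.39). With the CSNK2B vector in KI-JK 8 of the 12 rose and 1 fell, beside 35.7%, with HSPA9 at 0.33 and HSPD1 at 0.27. In SU-DHL-1 0 of 12 were called, beside 6.74% (edgeR; 1 at an unadjusted p under 0.05, 0 by DESeq2), and the difference between the lines was called for 6 of 12, all higher in KI-JK, beside 19.2%.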
